A study of Oryza sativa with 6 samples.

Results

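The genes described here are the A- and B-type mitotic cyclins and the B-type cyclin-dependent kinase CDKB1-1 of rice, in shoot apices of wild type (WT) and of the mutant dsl1. They were chosen by name, through their symbols in the rice gene reference: 9 genes, of 15140 that have a cluster of their own on the array. They are CYCA1-4, CYCA2-1, CYCA3-1, CYCA3-2, CycB1-1, CYCB1-1, CYCB1-5, CYCB2 and CDKB1-1, each read by 1 transcript cluster, a group of probes summarised as 1 transcript. A pair of genes carries almost the same name: CycB1-1 is LOC4326914, also listed as CYCB1-3, and CYCB1-1 is LOC4327547. CYCB2 is LOC4342121, listed as CYCB2-2, while the other gene with that symbol, LOC4336670 (CYCB2-1), was not analysed here.

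The study took apices from soil-grown plants just as the tip of the fifth leaf appeared, so that each piece held the meristem and the youngest leaf primordia. There were 3 WT samples and 3 dsl1 samples, each on 1 array, and dsl1 is a dwarf with slender leaves whose altered gene encodes a histone deacetylase. The labels give no cultivar, no allele beyond the mutant's name and no treatment, and they do not say whether replicates came from separate plants, so every p-value reflects the scatter of these arrays alone, part of which could be technical. The sources used here do not name which deacetylase gene is altered in dsl1, so the mutation was not checked on the arrays.

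Cyclins are the regulatory subunits of cyclin-dependent kinases (CDKs), and each class appears and is destroyed at its own stage of the cell cycle. In plants, A-type cyclins act from S phase to the start of mitosis, B-type cyclins peak around the G2-to-M transition, and both are marked for destruction by the anaphase-promoting complex during mitosis. B-type CDKs are a plant class and, unlike the A-type CDK, accumulate in a cell cycle-dependent manner. Transcripts of these genes are therefore commonly used as markers of dividing cells in the shoot apex, where the meristem and young primordia supply new cells to the leaves.

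Levels are the deposited log2 expression values, on which a difference of 1 is 2-fold. The median of all clusters on an array lay between 5.30 and 5.40. Pairs of arrays correlated at 0.970 to 0.980 for WT, at 0.980 to 0.981 for dsl1 and at 0.962 to 0.978 across genotypes, so some WT pairs were no closer than some pairs across genotypes. Of the apex genes used to check the tissue, 4 meristem homeobox genes were measured: OSH1 lay at 4.63 to 5.35 over the 6 arrays, OSH15 at 5.17 to 5.86, OSH71 at 4.19 to 5.08 and WOX4 at 4.99 to 5.79. OSH71 lay below the array medians and OSH1 below or near them. OSH15 and WOX4 lay on both sides of them, up to 5.86 and 5.79. The part of probe brightness in these levels was not tested. Because probes differ in brightness, levels of different genes are not set against each other. In these bulk samples more or fewer dividing cells cannot be told apart from more or less transcript per cell.

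Between the genotypes, 3 of the 4 A-type cyclins stood higher in dsl1 by about the same amount, 0.29 to 0.34 on the log2 scale, while CYCA1-4 differed by -0.15. The B-type cyclins differed by -0.058 to 0.19 and CDKB1-1 by 0.18. None of the 9 differences passed the test, a limma adjusted p under 0.05 over all 54922 clusters, which 0.0255% of all clusters passed. The smallest adjusted p was 0.385, for CYCA3-2, and the largest 0.961, for CYCB1-1. Each SE, 95% interval and limma p-value given here combines the gene's own scatter with the spread of all clusters. An SE therefore differs from what the SDs of that gene alone would give. The 95% interval of the log2 difference excluded 0 for CYCA3-2 and included it for the other 8 genes.

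**Figure D1:**
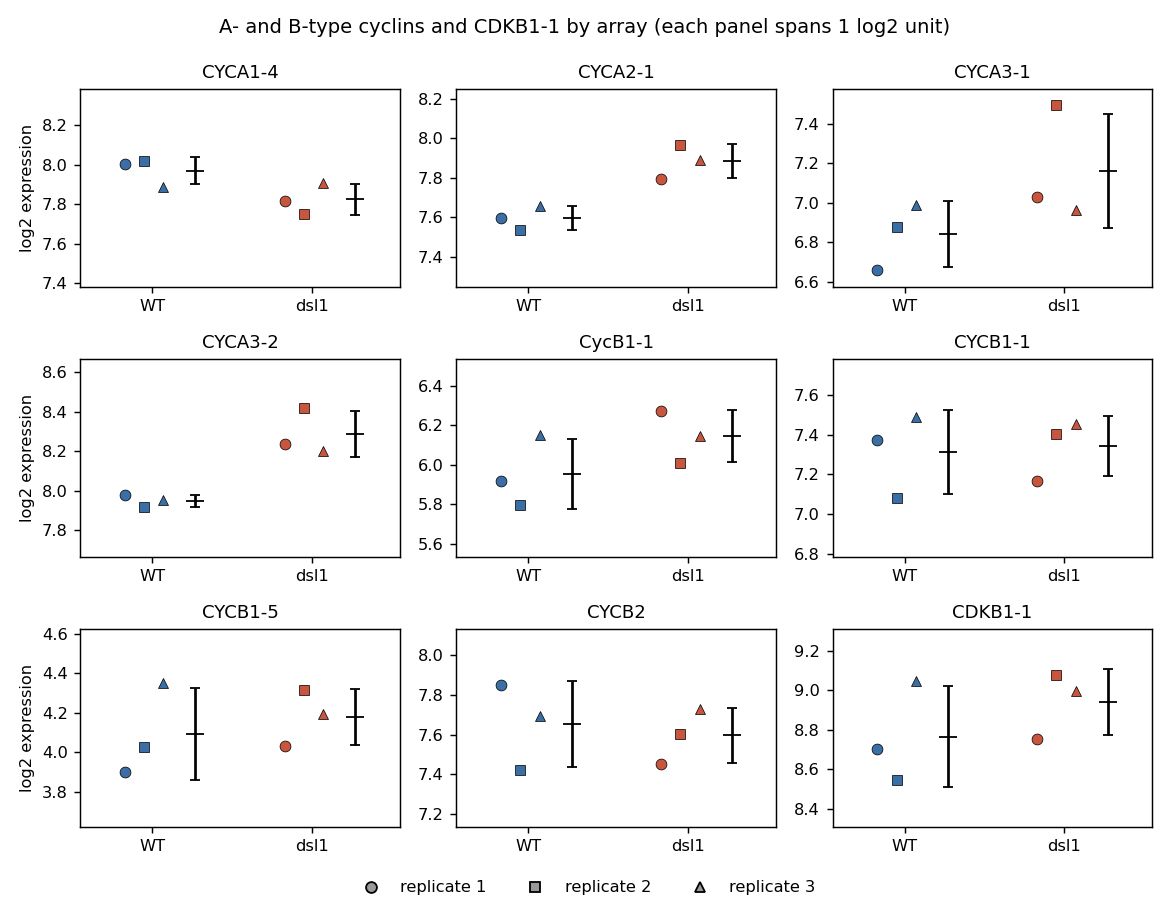
Deposited log2 expression (vertical axes, each spanning 1 log2 unit) of the 9 genes in WT (blue) and dsl1 (red); marker shapes are replicates 1 to 3, and the bar beside them is the mean ± SD of the 3 arrays. The 3 dsl1 arrays lie above the 3 WT arrays for CYCA2-1 and CYCA3-2, and the groups overlap for the other 7 genes.

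CYCA3-2 showed the clearest separation. CYCA3 cyclins belong to a plant-specific class that, in tobacco and Arabidopsis, is linked to the G1-to-S transition and S phase. CYCA3-2 (LOC4352642) was at 7.98, 7.92 and 7.95 in WT replicates 1, 2 and 3 and at 8.24, 8.42 and 8.20 in dsl1 replicates 1, 2 and 3. The groups did not overlap: the lowest dsl1 array stood 0.23 above the highest WT array, and the WT arrays spanned 0.060. The WT mean was 7.95 ± 0.0305 and the dsl1 mean 8.29 ± 0.116 (SD, n = 3 each), a log2 difference of 0.34 with an SE of 0.124, or 1.26-fold. The 95% interval ran from 1.03-fold to 1.55-fold, with an unadjusted limma p of 0.0298 and an adjusted p of 0.385. With 3 arrays against 3, a 2-sided exact permutation test cannot go below 0.1, the value it gave for this gene.

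CYCA2-1 (LOC4352280) belongs to the class whose Arabidopsis members act with B1-type CDKs to hold cells in the mitotic cycle and delay endoreduplication, the copying of DNA without division. It was at 7.60, 7.54 and 7.66 in the WT arrays and at 7.79, 7.96 and 7.89 in the dsl1 arrays. Here too all dsl1 arrays lay above all WT arrays, with a gap of 0.13. The means were 7.60 ± 0.0616 and 7.88 ± 0.0858 (SD, n = 3 each), and the log2 difference was 0.29 with an SE of 0.121. This corresponds to 1.22-fold, with a 95% interval of 0.999 to 1.49 and a limma adjusted p of 0.426 (unadjusted p = 0.0508).

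CYCA3-1 (LOC4333422), of the same class as CYCA3-2, had a difference of similar size but a wider spread. Its levels were 6.66, 6.88 and 6.99 in WT and 7.03, 7.49 and 6.96 in dsl1. The groups overlapped by 0.027, and dsl1 replicate 2 stood well above the other 5 arrays. The log2 difference was 0.32 with an SE of 0.185 (limma adjusted p = 0.539). Without dsl1 replicate 2 it was 0.15.

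CYCA1-4 (LOC4338177) was the A-type cyclin that stood lower in dsl1. Cyclins of the A1 class include the Arabidopsis gene TAM, which is needed for the meiotic divisions. CYCA1-4 was at 8.00, 8.02 and 7.89 in WT and at 7.82, 7.75 and 7.91 in dsl1. The groups met at one pair of arrays, where dsl1 replicate 3 lay 0.019 above WT replicate 3. The log2 difference was -0.15 with an SE of 0.121 and a 95% interval of -0.43 to 0.14 (limma adjusted p = 0.670). It kept its sign in each of the 15 alternatives run, between -0.20 and -0.11, but some of these cannot change a log2 difference. CYCA2-1, CYCA3-1, CYCA3-2, CycB1-1 and CDKB1-1 kept their signs as well.

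**Figure D2:**
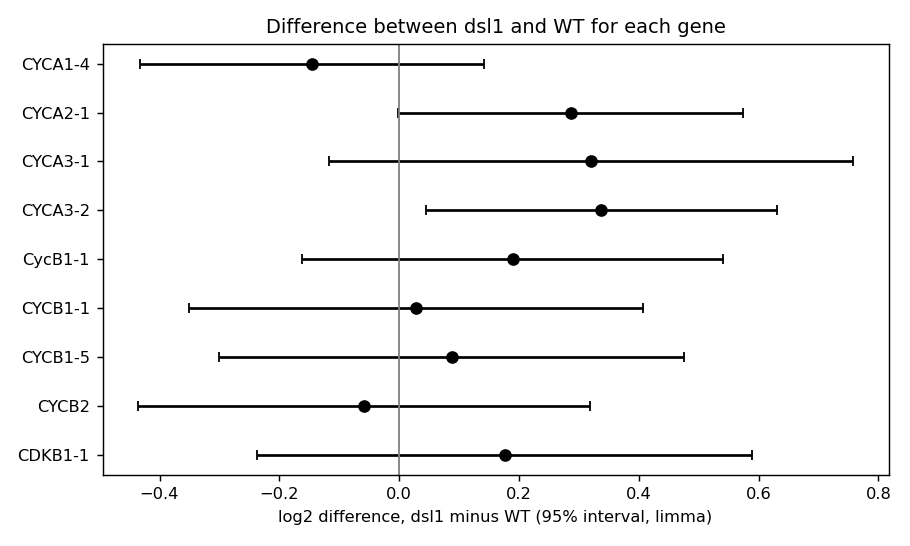
Log2 difference between the mean of 3 dsl1 arrays and that of 3 WT arrays for each gene (points) with its 95% interval from limma (bars); the vertical line marks no difference. CYCA2-1, CYCA3-1 and CYCA3-2 lie at 0.29 to 0.34, and among the 9 intervals that of CYCA3-2, from 0.044 to 0.63, leaves out 0.

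The B-type cyclins, which drive entry into mitosis, showed overlapping groups throughout. CycB1-1 (LOC4326914) was at 5.92, 5.80 and 6.15 in WT and at 6.27, 6.01 and 6.15 in dsl1, a log2 difference of 0.19 with an SE of 0.148 (limma adjusted p = 0.649). WT replicate 3 lay inside the dsl1 range, and the difference was 0.29 without that array and 0.11 without WT replicate 2.

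CYCB1-1 (LOC4327547), of the B1 class used in Arabidopsis as a reporter of cells in G2 and mitosis, was at 7.37, 7.08 and 7.49 in WT and at 7.17, 7.41 and 7.45 in dsl1. The means were 7.31 ± 0.212 and 7.34 ± 0.152 (SD, n = 3 each). The log2 difference was 0.028, with a 95% interval of 0.784-fold to 1.33-fold and a limma adjusted p of 0.961, and its sign turned to -0.027 on quantile normalisation. The lack of a call therefore does not show that its level was the same in both genotypes.

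CYCB2 (LOC4342121), of a class whose members pair with B-type CDKs in rice, was at 7.85, 7.42 and 7.69 in WT and at 7.45, 7.60 and 7.73 in dsl1. The dsl1 arrays lay within the WT range, and the log2 difference was -0.058 with an SE of 0.159 (limma adjusted p = 0.911). CYCB1-5 (LOC4339185) was read by a dim cluster, at 3.90, 4.03 and 4.35 in WT and 4.03, 4.31 and 4.19 in dsl1. All 6 values were below the array medians, where background takes up more of the signal. Its log2 difference was 0.088 with an SE of 0.164 (limma adjusted p = 0.866), and its groups overlapped.

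CDKB1-1 (LOC9269568) encodes a kinase of the mitotic cycle, which in Arabidopsis works with A2-type cyclins among others. It was at 8.70, 8.55 and 9.05 in WT and at 8.75, 9.07 and 8.99 in dsl1. The highest WT array lay among the dsl1 arrays, and the WT arrays spanned 0.50, the widest WT span of the 9 genes. The means were 8.76 ± 0.255 and 8.94 ± 0.166 (SD, n = 3 each), a log2 difference of 0.18 with an SE of 0.174 and a 95% interval of 0.849-fold to 1.50-fold (limma adjusted p = 0.725). The difference was 0.067 without WT replicate 2 and 0.32 without WT replicate 3.

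As a group, 7 of the 9 genes stood higher in dsl1 and 2 lower, with a median log2 difference of 0.18, which was 0.067 without WT replicate 2, 0.29 without WT replicate 3 and 0.11 without dsl1 replicate 2. Over all 15140 genes, 1 cluster each, 53.0% stood higher and the median was 0.019, and over the 1741 genes with a common symbol 59.6% stood higher and the median was 0.063. In CYCA3-2 alone, 1 of the 9 or 11.1%, the unadjusted limma p was under 0.05 on the higher side, against 6.06% of all clusters, 9.46% of genes and 11.5% of genes with a common symbol. It was under 0.05 on the lower side in 0 of the 9, against 5.70%, 5.52% and 4.08%. Groups that did not overlap, with dsl1 above, were found for 2 of the 9, or 22.2%, against 9.15% of all clusters, 15.0% of genes and 17.8% of genes with a common symbol. With dsl1 below they were found for 0 of the 9, against 10.2%, 9.33% and 7.47%. With 9 genes these shares are close to the background. The 4 A-type cyclins had a median of 0.30 and the 4 B-type cyclins one of 0.058, a contrast whose difference was not tested. The B-type median was -0.018 without WT replicate 2, 0.17 without WT replicate 3, and 0.12, 0.0085 and 0.027 without dsl1 replicates 1, 2 and 3. The A-type median was 0.20 without dsl1 replicate 2 and 0.26 to 0.35 without each of the other arrays.

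Many of the genes also shared an order of arrays within a genotype. In WT, replicate 2 gave the lowest of the 3 values for 6 of the 9 genes and replicate 3 the highest for 6. Among the 9 genes the pattern was strongest in the mitotic set of 4 B-type cyclins and CDKB1-1. There WT replicate 2 was lowest for 4 of 5 and WT replicate 3 highest for 4 of 5. A low WT replicate 2 was also seen outside the 9 genes, in much of the DNA replication list and in kinesins such as KIN13A and KIN5C, described below. For other kinesins, such as KIN7C, that array was the highest in WT. How often it was the lowest WT array over all genes was not counted. On average the 5 genes of the mitotic set lay 0.22 below their own mean over the 6 arrays in WT replicate 2. They lay 0.15 above it in WT replicate 3. Within dsl1, replicate 1 was lowest for 4 of these 5 genes, at -0.062 on average, and replicates 2 and 3 lay at 0.084 and 0.11. The medians of all clusters had part of the same order: 5.36, 5.30 and 5.40 in WT replicates 1, 2 and 3 and 5.32, 5.37 and 5.35 in dsl1 replicates 1, 2 and 3. WT replicate 2 was thus the lowest array and WT replicate 3 the highest by this measure, over a range of 5.30 to 5.40. The median centred level of all 15140 genes, at -0.016, -0.0051 and -0.022 in WT and 0.022, -0.0073 and 0.031 in dsl1, did not have this order. The part of these array-wide shifts in the cyclin values was not tested.

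The A-type cyclins followed another order. Their average lay at -0.13, -0.10 and -0.066 in WT replicates 1, 2 and 3 and at 0.029, 0.22 and 0.052 in dsl1 replicates 1, 2 and 3. Thus dsl1 replicate 2 was the highest dsl1 array for 3 of the 4, and for the fourth, CYCA1-4, it was the lowest of all 6 arrays. The SD over replicates was larger in dsl1 than in WT for 4 of 4 A-type cyclins and smaller in dsl1 for 5 of 5 genes of the mitotic set. With 3 arrays per genotype, these are descriptions of the arrays and were not tested.

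**Figure D3:**
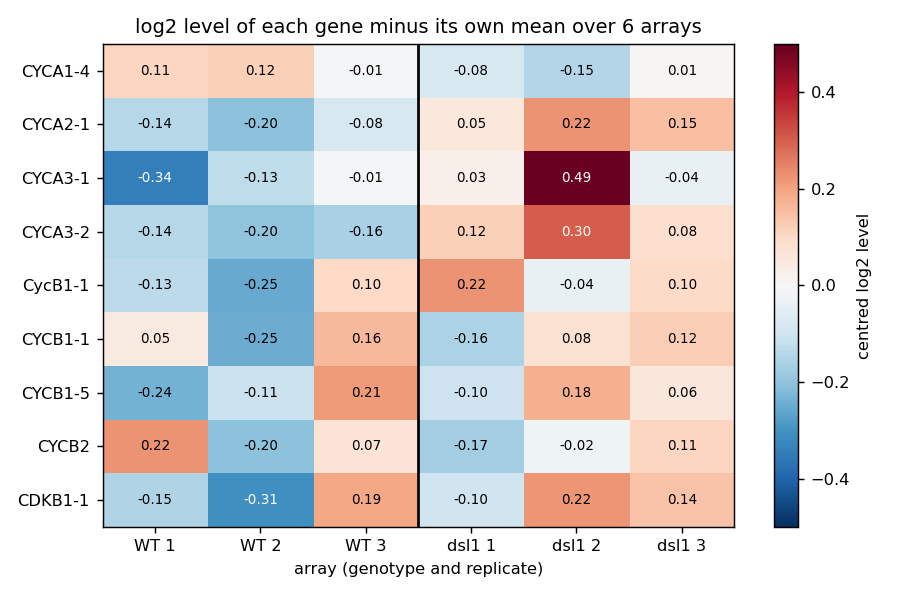
Log2 level of each gene (rows) on each array (columns, genotype and replicate) minus that gene's own mean over the 6 arrays; red is above and blue below the mean, and the number in each cell is the value. WT replicate 2 is below the mean for 8 of 9 genes, all but CYCA1-4, and dsl1 replicate 2 holds the highest value for 4 genes.

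Markers of other parts of the dissected tissue varied between arrays too. The summed level of 4 greening-leaf genes (CAB1R, CAB2R, PORB and CHLH, of light harvesting and chlorophyll synthesis) lay between 11.3 and 11.6 in WT and between 10.9 and 11.4 in dsl1, on the log2 scale. Its lowest value, 10.9, was in dsl1 replicate 2, the array in which CYCA2-1, CYCA3-1 and CYCA3-2 were highest. Levels were summed on the linear scale, so the brightest gene, CAB2R, weighed most. CAB2R was at 10.1 in dsl1 replicate 2 and at 10.7 in dsl1 replicates 1 and 3. Between genotypes CAB1R, CAB2R and PORB differed by -0.28, -0.24 and -0.18 and CHLH by 0.15, none of which passed in limma. The summed level of the 4 meristem genes lay between 7.05 and 7.14 in WT and at 7.07, 7.34 and 7.39 in dsl1 replicates 1, 2 and 3, so that dsl1 replicate 1, low for the mitotic set, was also the lowest dsl1 array here. Of these 4 genes OSH71, OSH15 and OSH1 differed by 0.57, 0.35 and 0.15 and WOX4 by -0.28, none of which passed in limma. The summed level of 5 genes of young leaf primordia (YAB1, YAB3, YAB4, DL and PLA1) lay between 8.56 and 8.80 in WT and between 8.49 and 8.68 in dsl1. The 1 root gene measured, the silicon exporter Lsi2, lay between 4.82 and 4.94 in WT and between 4.92 and 4.96 in dsl1. The part of tissue makeup in the cyclin values was not tested.

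Other genes of the cell cycle were found through their symbols in the reference, 67 in all. Of these 46 stood higher and 21 lower in dsl1, with a median log2 difference of 0.060, and none passed in limma over all clusters. The shares were 68.7% and 31.3%, against 59.6% and 40.4% of genes with a common symbol, whose median was 0.063. With 1 array left out, the number of the 67 that stood higher ranged from 37 (without WT replicate 2) to 46. Their median reached 0.100 without WT replicate 1. An unadjusted p under 0.05 was found for 9 on the higher side and 2 on the lower side, 13.4% and 2.99%, against 11.5% and 4.08% of genes with a common symbol. Genes were matched by symbol, so genes known for each step can be missing. The lists with a match held from 1 to 23 genes.

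Among 19 other cyclins and CDKs, 11 stood higher and 8 lower, with a median of 0.0060. They were 9 and 10 without WT replicate 1 (median -0.0035) and without dsl1 replicate 2 (median -0.031), and the median was 0.032, 0.033, 0.059 and 0.089 without WT replicate 3, dsl1 replicate 1, dsl1 replicate 3 and WT replicate 2. The D-type cyclin CYCD5-3, of the class that couples growth signals to entry into the cycle, differed by 0.53 (SE 0.156, limma adjusted p = 0.327). CYCL1-1, of a cyclin class tied to RNA processing, differed by 0.38 (adjusted p = 0.357). CYCD3-2 and CDKA-1, at 0.51 and 0.37, were the other 2 with an unadjusted p under 0.05, and both were picked out once their values were known. CDKA-1 is an A-type CDK, the partner that many cyclins share, and it was at 0.423 after adjustment. The lower side held no gene with an unadjusted p under 0.05, and its leading genes CYCP3-1 and CDKF-2 differed by -0.17 and -0.25.

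Of the brakes on CDK activity, WEE1, the kinase that inhibits CDKs when DNA is damaged or unreplicated, was at 5.36, 5.41 and 5.56 in WT and at 5.72, 5.74 and 5.80 in dsl1. All 3 dsl1 values lay above the WT values, with a log2 difference of 0.31 (SE 0.122, limma adjusted p = 0.407). The median of the 4 genes of this list, 0.12, was -0.024 without WT replicate 1, 0.032 without dsl1 replicate 1 and 0.27 without WT replicate 2. The CDK inhibitors KRP1 and KRP6 differed by 0.23 and -0.41 (adjusted p = 0.552 and 0.528). The retinoblastoma-related gene RBR1, which holds back S-phase genes, differed by 0.16. MYB3R-2, of the MYB family that controls G2-to-M genes including B-type cyclins, differed by -0.026, with an adjusted p of 0.956 in limma.

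The DNA replication list held 17 genes, 12 higher and 5 lower, with a median of 0.027. These counts turned on single arrays: they were 7 higher and 10 lower without WT replicate 2 (median -0.013), 8 and 9 without dsl1 replicate 2 (median -0.0025), 14 and 3 without dsl1 replicate 1 (median 0.069), and the median was 0.100 without WT replicate 1 and 0.086 without dsl1 replicate 3. MCM2, a subunit of the replicative helicase, was at 8.43, 8.00 and 8.39 in WT and 8.71, 8.87 and 8.64 in dsl1, with no overlap and a log2 difference of 0.47 (SE 0.162, limma adjusted p = 0.365). RPA2A, of the single-strand binding protein, differed by 0.36 and RFC2, of the clamp loader, by -0.38 (adjusted p = 0.403 and 0.391). RPA1C differed by -0.14. As for the mitotic set, MCM2 was lowest in WT replicate 2. Among the WT arrays, replicate 2 was also lowest for MCM3, MCM6, ORC1, ORC2, ORC4, ORC5, RPA1B, RPA1C, RPA14 and POLD2. It was highest for RFC1, RFC4 and RPA2C.

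Of 23 kinesins, motors of the spindle and of the phragmoplast that builds the new cell wall as well as of other transport, 17 stood higher and 6 lower, with a median of 0.064, which was 0.12 without WT replicate 1. KIN13A, known in rice as SRS3 for its effect on seed size, and KIN5C, of the class that pushes spindle poles apart, differed by 0.37 and 0.36 (limma adjusted p = 0.394 and 0.403). KIN14D was at 4.17, 4.18 and 4.25 in WT and 3.71, 3.68 and 3.86 in dsl1, all dsl1 values below all WT values, with a log2 difference of -0.45 (SE 0.121, adjusted p = 0.302). This was the smallest adjusted p of all the cell cycle genes described here, on a cluster below the array medians. KIN14K differed by -0.24 (adjusted p = 0.480). The shugoshin gene SGO1, a guardian of centromeric cohesion, and CenH3, the centromeric histone, differed by 0.29 and 0.13 (adjusted p = 0.559 and 0.813). No gene of the anaphase-promoting complex was matched.

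**Figure D4:**
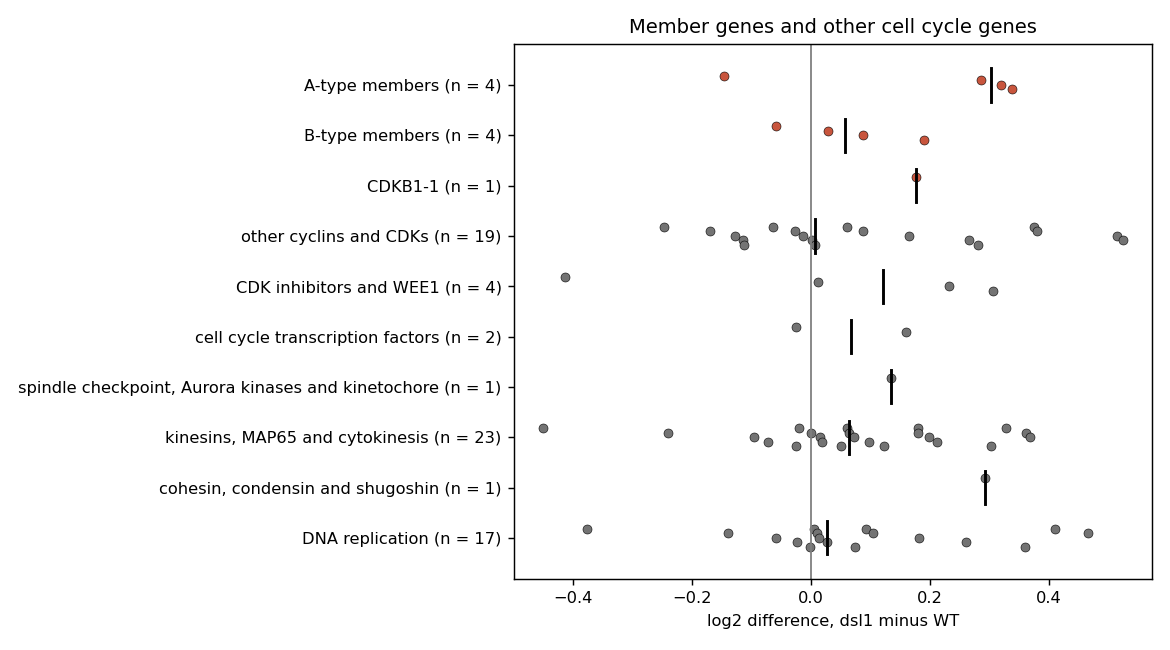
Log2 difference between dsl1 and WT (horizontal axis) for each of the 9 genes by class (red) and for other cell cycle genes by list (grey), 1 point per gene, with the median of each row as a black line. The A-type cyclins have a median of 0.30, and the 3 lists of 17 to 23 genes have medians of 0.0060 to 0.064 with points on both sides of 0.

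The average profile of the 9 genes over the 6 arrays was set against 1077 other genes with a common symbol and a mean level above 6.08, by the root mean square difference of centred log2 values. The nearest were Ehd3, a regulator of heading date, at 0.0448, ADPase (an apyrase, also APY2) at 0.0455, the actin gene AC1 at 0.0505, the origin recognition gene ORC4 at 0.0577 and OST48, of protein glycosylation, at 0.0591. Their log2 differences between genotypes were 0.065, 0.21, 0.10, 0.074 and 0.12, and none passed in limma (adjusted p from 0.564 to 0.879). The members themselves lay at 0.0810 (CYCA2-1) to 0.190 (CYCA1-4) from their own average. The genes named above were picked as the nearest of 1077, whereas the members were not picked by distance. The measure was not scaled for how much a gene varies, so a gene that varies little can score near. These distances therefore do not show that the named genes share the pattern of the cyclins better than the cyclins do.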

How the data were processed

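Total RNA of 6 shoot apex samples was labelled with biotin and hybridised to single-colour Affymetrix whole-transcript arrays, per the labels' protocols. The authors deposited 1 table of log2 expression for 54922 clusters, used without further scaling. Per the submitters' processing notes the software was Affymetrix Expression Console 1.3; the sources used here do not give its background correction, normalisation or genome build. Names came from the platform annotation, which pairs 15829 clusters with exactly 1 gene, and the rice gene reference (assembly ASM3414082v1). The brightest cluster by mean over the 6 arrays stood for a gene.

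dsl1 was compared with WT in limma 3.58.1 under R 4.3.3 (lmFit and eBayes, 2-sided, no block), with Benjamini-Hochberg adjustment over all clusters and a threshold of 0.05. The fit was tested on simulated data whose planted differences were larger than any found for the members. That test therefore does not show whether differences of the members' size would be called. The number of arrays limits the precision. Same-numbered WT and dsl1 samples deviated from their group means with correlations of -0.064, -0.13 and -0.052. These values gave no sign of pairing by number, but they cannot show that same-numbered samples were handled apart. From each cell cycle list up to 2 genes per direction with the smallest p were named, and the 5 genes with the nearest profile. Members and lists were chosen with earlier results of these data known.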

Additional observations from a re-analysis of the deposited data

How the results depend on the processing

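Of 134 alternative values of the 9 genes, 126 kept their side of the threshold and their direction and 8 changed sign. None passed after adjustment. Fits on fewer clusters, with a variance trend or robust prior, or with the replicate block leave each log2 difference unchanged. In those fits no sign could change, so part of the 126 was fixed in advance. CYCB1-1 turned to -0.027 on quantile normalisation and -0.012 with array weights, and with 1 array left out it ranged from -0.090 to 0.12. CYCB1-5 ranged from -0.0090 to 0.22 and CYCB2 from -0.17 to 0.039 with 1 array left out; CYCB1-5 was too dim to enter the fit without the dimmest 33.3% of clusters. The count of members higher at an unadjusted p under 0.05, 1 in the report, was 2 (CYCA3-2 and CYCA2-1) on median centring, without the dimmest 33.3% of clusters, on clusters with 1 gene, without the 7793 entries at the head of the table and with a variance trend. It was 0 with the replicate block and 0 to 1 with 1 array left out. The median of the members ranged from 0.067, without WT replicate 2, to 0.29, without WT replicate 3. Over all clusters 8 passed as higher and 6 as lower; these counts were 59 and 16 on clusters with 1 gene, 36 and 16 without the 7793 entries at the head of the table, 1 and 0 with the replicate block, and 0 to 4 each with 1 array left out. Without the dimmest 33.3% of clusters, 12 passed as higher and 5 as lower. Fits on fewer clusters adjust over fewer tests, and the block and left-out arrays leave fewer degrees of freedom. The cause of the changes in these counts was not tested. No sample was best matched by its own number. Averaging all clusters of a gene gave no other value, since each member has 1.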
